A study of Mus musculus with 6 samples.

Results

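The Wnt pathway is described here through 57 listed genes for ligands, ligand release, receptors, secreted inhibitors, cytoplasmic regulators and nuclear effectors. A gene was represented by the probe set that names that gene alone and has the highest mean over the 6 arrays, which gave 56 members among 18193 genes. A further listed member, a nuclear effector, was not analysed here. RNA of sorted mouse bone marrow cells was measured on Affymetrix MOE430_2 arrays, which read the 3' ends of transcripts. There were 3 arrays of Ebf2-positive cells and 3 of Ebf2-negative cells. Cells of both groups came fresh from wild-type C57BL/6 mice, had no treatment, and lay in a gate negative for CD45 (leukocytes), TER119 (erythroid cells) and CD31 (endothelium). Ebf2, a transcription factor of the early B cell factor family, marks a class of marrow stromal cells. How old and how many the animals were, and how Ebf2 was detected in the sort, the labels do not say. Nothing in the labels says whether each replicate is from its own animal, and the p-values rest on the spread of these samples alone, and that spread may be technical.

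Wnt proteins are lipid-modified secreted ligands that bind Frizzled receptors. With the co-receptors Lrp5 or Lrp6 they stop the destruction complex of Axin, Apc and Gsk3b from removing β-catenin, which then acts with TCF/LEF factors on target genes. Other Wnt signals run through Ror and Ryk receptors without β-catenin, and secreted Sfrp, Dkk and Wif proteins limit the ligands or their receptors. In marrow the pathway is known for its roles in bone formation and in the stromal support of blood cells.

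The Ebf2 probe set had a mean log2 signal of 8.33 ± 0.41 (SD, n = 3) in Ebf2-positive and 3.66 ± 0.49 (n = 3) in Ebf2-negative cells, in the direction of the labels. Ptprc, the gene of the gated CD45, was not near the low end in all samples. It read 6.68, 6.76 and 3.59 in Ebf2-positive replicates 1, 2 and 3 and 8.78, 7.98 and 8.23 in the Ebf2-negative ones (difference -2.65, adjusted p = 0.0698). All arrays but Ebf2-positive replicate 3 were thus well above the array median of 3.69 to 3.80, although both groups were gated as CD45-negative. Pecam1, the gene of CD31, read 3.57 ± 0.52 (SD, n = 3) against 3.01 ± 0.70 (n = 3). Markers of other cells moved with the groups as well. The mean log2 signal of 14 erythroid markers was 9.19 to 9.40 on the Ebf2-negative arrays and 5.02 to 5.47 on the Ebf2-positive ones, with 13 of 14 called lower in Ebf2-positive cells and Hba-a1 dim. For 13 cell division genes it was 9.40 to 9.47 against 4.81 to 5.96, with all 13 called lower. For 18 leukocyte markers it was 6.60 to 6.90 against 5.38 to 6.14, with 5 called lower, 1 called higher and the B cell marker Ms4a1 dim. For 13 fibroblast markers it was 6.09 to 7.05 on the Ebf2-negative and 11.29 to 11.70 on the Ebf2-positive arrays, with all 13 called higher, and 11 of 13 pericyte and smooth muscle markers were called higher. Of 12 endothelial markers 2 were called higher, and of 9 osteoblast genes 3 were called higher and 1 lower. Of 12 marrow reticular stroma markers 0 were called higher and 1 lower, with a median difference of -0.80. Bulk arrays cannot tell fewer cells of a type from less RNA per cell, and the part of this make-up in the Wnt values below was not tested.

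More of the Wnt genes were higher than lower in the Ebf2-positive cells. Of the 56 members, 22 were called higher and 2 lower, where a call is an adjusted p below 0.05 in limma's test over all 18193 genes. Over all genes 24.4% were called, 10.8% higher and 13.6% lower. The median log2 difference, counted as Ebf2-positive minus Ebf2-negative signal, was 1.11 over the members and 0.07 over all genes. Of the 56 members, 11 were called with a difference of 4-fold or more, as were 12.0% of all genes. The 4 members Wnt2b, Lrp5, Lgr6 and Dkk1 were dim, meaning that all 6 values lay under the median probe set of the array, and none of those 4 was called. On all genes 25.2% were dim. Groups did not overlap for 32 members with Ebf2-positive cells higher and for 3 with them lower, against 21.8% and 21.2% of all genes, or 43.0% in either direction.

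These counts rest on the arrays being set to the same distribution of signals. The poly-A control transcripts, which are added to RNA before amplification, had a mean log2 signal of 12.32 ± 0.23 (SD, n = 3) in Ebf2-positive and 9.84 ± 1.0 (n = 3) in Ebf2-negative arrays. The hybridization controls, which are added after amplification, differed the same way, with 12.39 ± 0.63 against 10.79 ± 0.47 and a difference of 1.60. When every array was centred on the poly-A controls, each difference fell by 2.48, the median over all genes was -2.41, and 2 members were called higher (Wnt5a and Dkk2) and 27 lower. The labels do not give the amounts of control added, and every direction given below is relative to the other genes of the same array.

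**Figure D1:**
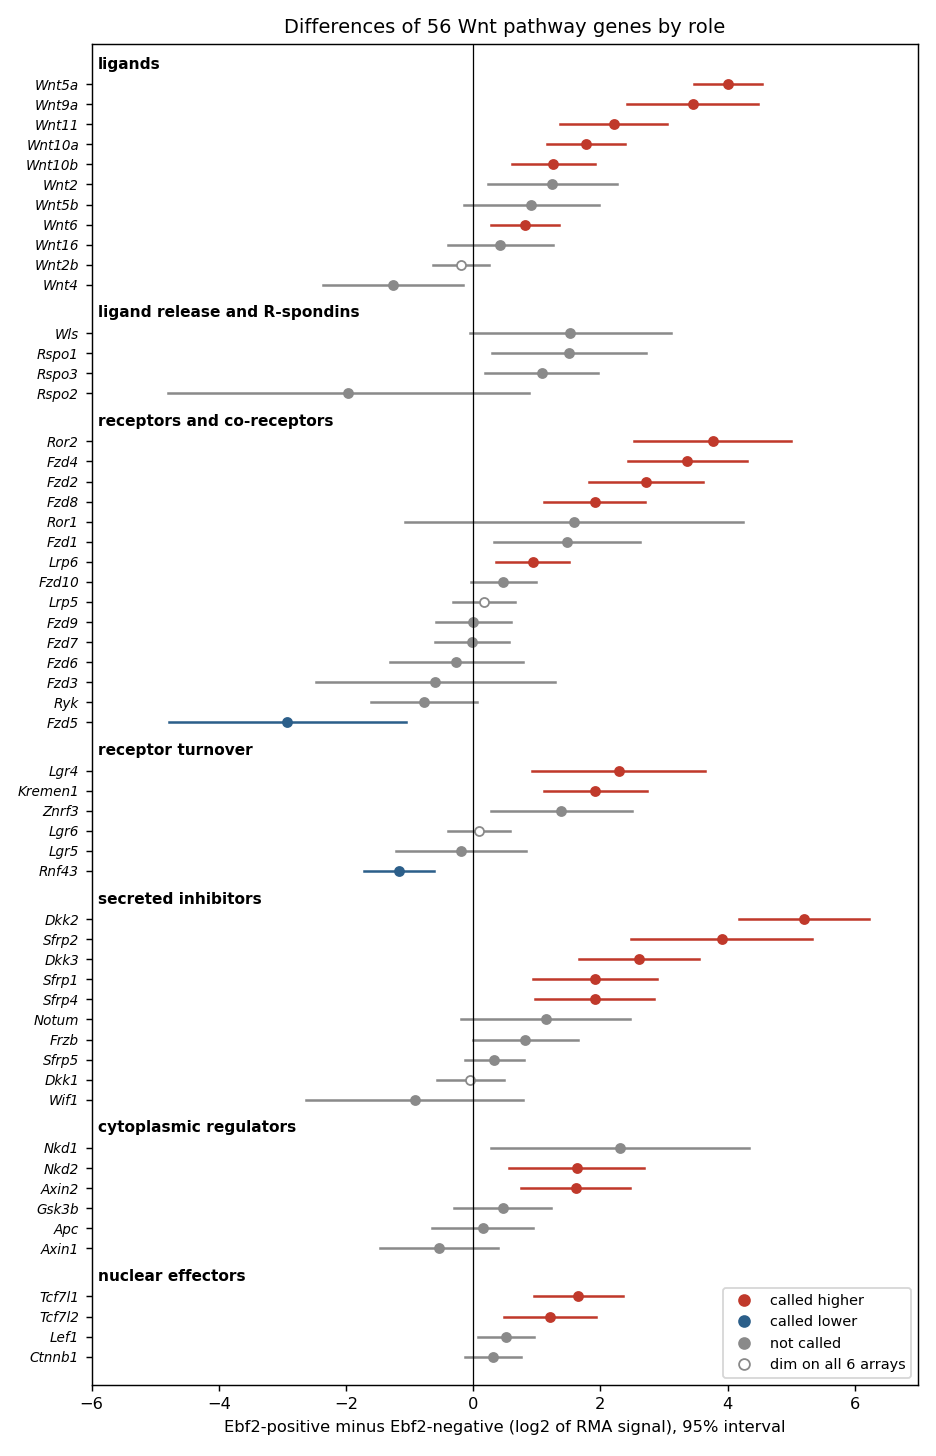
Difference in log2 signal (Ebf2-positive minus Ebf2-negative) of the 56 Wnt pathway members, grouped by role, with 95% confidence intervals from limma (n = 3 arrays a group). Called members are coloured, and most of them lie to the right of 0, with Dkk2 at 5.20 farthest right and Fzd5 at -2.92 farthest left.

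Of the 11 ligands, 6 were called higher and 0 lower, with a median difference of 1.24. Wnt5a, a ligand best known for β-catenin-independent signals through Ror2, stood at 6.39, 6.12 and 6.19 in Ebf2-positive replicates 1, 2 and 3 and at 2.17, 2.54 and 1.95 in the Ebf2-negative ones. The 3 values of each group lay close together and the groups lay far apart. The difference was 4.01 (SE 0.22, 16.1-fold, adjusted p = 0.000321). The Ebf2-negative values lay below the array medians of 3.69 to 3.80, where array signals compress differences, so this fold is not exact. A further Wnt5a probe set read 3.0, 5.64 and 5.43 against 2.46, 2.10 and 2.64, without overlap, and its difference of 2.29 was not called. The other 2 Wnt5a probe sets differed by 1.65 and 0.38 and were not called either.

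Wnt9a, a ligand with a known part in joint formation, stood at 7.55, 6.88 and 8.55 in Ebf2-positive cells and at 4.48, 4.06 and 4.09 in Ebf2-negative cells. All Ebf2-positive values were higher, by 3.45 on average (SE 0.43, 10.9-fold, adjusted p = 0.00271). The other Wnt9a probe set was dim and differed by 0.21. Wnt11, a ligand of cell movement and polarity, read 6.13, 7.22 and 6.32 against 3.94, 4.53 and 4.57. The groups did not overlap, and the difference was 2.21 (SE 0.35, 4.62-fold, adjusted p = 0.00597).

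Wnt10a and Wnt10b, ligands of the β-catenin branch that are known to restrain fat formation and favour bone, were both called higher. Wnt10a read 5.21, 5.02 and 5.21 against 3.07, 3.19 and 3.84 (difference 1.78, SE 0.26, adjusted p = 0.00427). Wnt10b read 5.02, 5.09 and 4.35 against 3.58, 3.77 and 3.33 (difference 1.26, SE 0.27, adjusted p = 0.0171). The groups overlapped for neither gene. The Wnt10b call was lost without Ebf2-negative replicate 1 (adjusted p = 0.0574) or Ebf2-negative replicate 3 (0.0726).

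Wnt6 had the smallest of the called ligand differences, 0.82 (SE 0.22, adjusted p = 0.0414), from 5.14 ± 0.33 (SD, n = 3) against 4.32 ± 0.07 (n = 3). Its call was kept only without Ebf2-positive replicate 2. Adjusted p rose to 0.124 without Ebf2-negative replicate 1, 0.103 without Ebf2-negative replicate 2, 0.124 without Ebf2-negative replicate 3, 0.0786 without Ebf2-positive replicate 1 and 0.0854 without Ebf2-positive replicate 3.

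Among the 5 ligands not called, Wnt4 and, by less, the dim Wnt2b had lower means in Ebf2-positive cells. Wnt4 stood at 4.54, 4.34 and 5.13 in Ebf2-positive and at 5.39, 6.91 and 5.48 in Ebf2-negative cells, without overlap (difference -1.26, SE 0.46, adjusted p = 0.0994). Wnt5b read 5.18, 3.60 and 3.94 against 3.64, 3.37 and 2.96, with Ebf2-positive replicate 1 apart from the other arrays (difference 0.91, adjusted p = 0.193). Wnt2, shown after its values were seen, read 2.88, 4.55 and 3.59 against 2.26, 2.52 and 2.51. Its groups did not overlap (difference 1.24, adjusted p = 0.0803). With 1 array left out, it passed only without Ebf2-positive replicate 1 (adjusted p = 0.0237). Wnt16 and Wnt2b differed by 0.43 and -0.19.

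**Figure D2:**
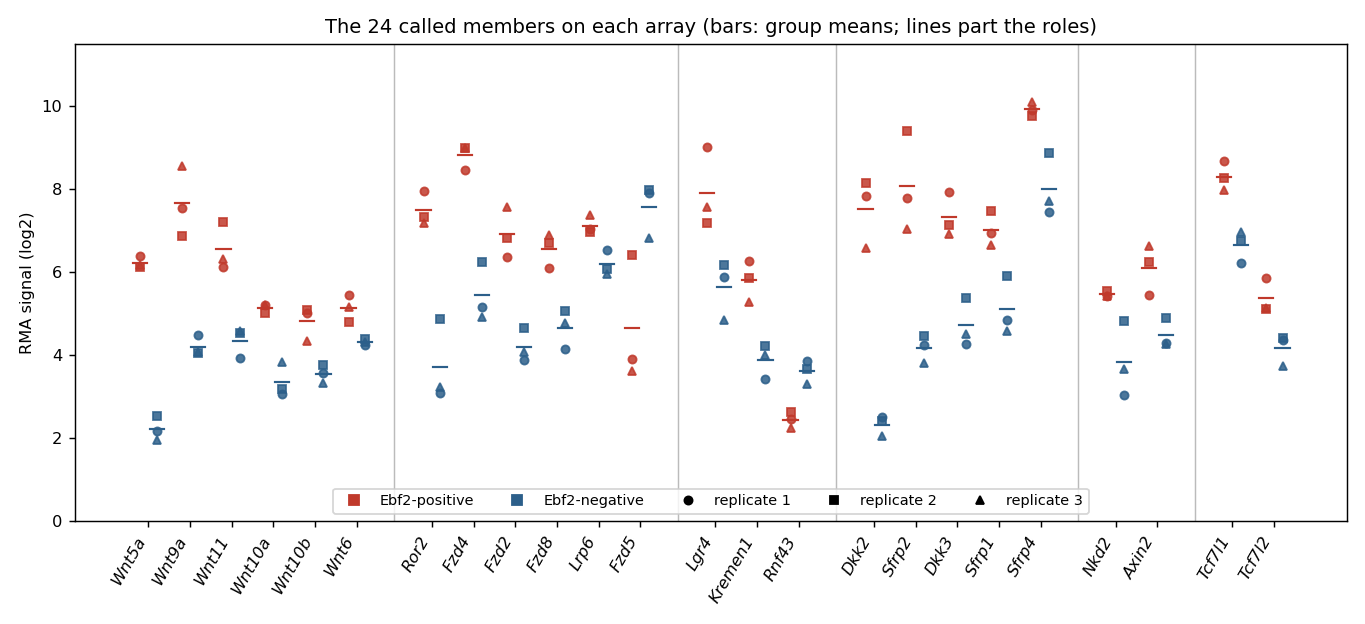
Log2 signal on each of the 6 arrays for the 24 called members, by role, with 3 points for Ebf2-positive and 3 for Ebf2-negative cells and a bar at each group mean. Fzd5 and Rnf43 are the members with the Ebf2-negative points above the Ebf2-positive ones.

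None of the 4 genes for ligand release and R-spondins was called, although 3 had differences above 1. Wls, which carries Wnt proteins to the cell surface, read 8.46, 8.13 and 5.99 in Ebf2-positive and 6.41, 6.02 and 5.58 in Ebf2-negative cells. Ebf2-positive replicate 3 lay among the Ebf2-negative values (difference 1.52, SE 0.66, adjusted p = 0.152). Without it the difference was 2.29 and passed (adjusted p = 0.00701). With any other array left out, adjusted p was 0.221 to 0.344. Another Wls probe set read 6.95, 7.32 and 7.24 against 6.22, 6.34 and 4.84, and a further set read 4.88, 6.20 and 4.996 against 3.77, 4.42 and 3.97. Neither overlapped between groups or had Ebf2-positive replicate 3 as its lowest Ebf2-positive array, and neither was called (differences 1.37 and 1.31). The mean over all Wls probe sets was called, with a difference of 1.08 (adjusted p = 0.0255). The R-spondins, secreted proteins that raise Wnt receptor levels by way of the Lgr receptors, differed among themselves. Rspo3 read 6.99, 6.80 and 6.52 against 5.5, 6.46 and 5.13, without overlap (difference 1.07, adjusted p = 0.0835). With 1 array left out, it passed only without Ebf2-negative replicate 2 (difference 1.46, adjusted p = 0.0199). Rspo1, at 5.34, 3.94 and 3.28 against 2.61, 2.65 and 2.78, also did not overlap and was not called (difference 1.51, adjusted p = 0.0781). With 1 array left out, it passed only without Ebf2-positive replicate 3 (difference 1.96, adjusted p = 0.0275). Rspo2 read 6.79, 6.53 and 2.64 against 7.29, 8.4 and 6.16, with Ebf2-positive replicate 3 far below every other array (difference -1.96, SE 1.18, adjusted p = 0.292).

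Of the 15 receptors and co-receptors, 5 were called higher and 1 lower, with a median difference of 0.48. Ror2, the receptor tyrosine kinase that binds Wnt5a, read 7.95, 7.34 and 7.18 in Ebf2-positive cells and 3.08, 4.87 and 3.24 in Ebf2-negative cells. The groups did not overlap, and Ebf2-negative replicate 2 was the highest of its group (difference 3.76, SE 0.51, 13.6-fold, adjusted p = 0.00359). The values of Ebf2-negative replicates 1 and 3 lay below the array median, so the fold is not exact. Its relative Ror1, shown after its values were seen, stood at 7.63, 6.81 and 3.13 against 4.02, 4.24 and 4.56. Ebf2-positive replicate 3 lay below all Ebf2-negative arrays, and the difference of 1.58 was not called (SE 1.11, adjusted p = 0.363). Without that array it was 2.95 (adjusted p = 0.00429). With any other array left out, adjusted p was 0.471 to 0.704.

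The Frizzled receptors split. Fzd4, also known as the norrin receptor of blood vessels, read 8.45, 9.0 and 8.98 against 5.16, 6.25 and 4.92 (difference 3.37, SE 0.39, 10.3-fold, adjusted p = 0.00205). Fzd2 read 6.37, 6.81 and 7.58 against 3.88, 4.67 and 4.08 (difference 2.71, SE 0.37, 6.55-fold, adjusted p = 0.00372), and its 2 further probe sets were called higher too, by 3.20 and 3.40. Fzd8 read 6.10, 6.71 and 6.91 against 4.15, 5.07 and 4.78 (difference 1.91, SE 0.33, adjusted p = 0.00805). The groups of these 3 receptors lay apart. Of the further Fzd4 probe sets, 1 differed by 2.5 without a call and 1 was dim with a difference of 0.24.

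Fzd5, a receptor of the β-catenin branch, had the largest difference of the 2 members called lower. It stood at 3.90, 6.42 and 3.63 in Ebf2-positive and at 7.91, 7.98 and 6.83 in Ebf2-negative cells. The groups did not overlap, although Ebf2-positive replicate 2 came close to the Ebf2-negative range (difference -2.92, SE 0.78, 7.59-fold, adjusted p = 0.0370). The call was kept only without that array. Adjusted p was 0.120 without Ebf2-negative replicate 1, 0.112 without Ebf2-negative replicate 2, 0.0663 without Ebf2-negative replicate 3, 0.105 without Ebf2-positive replicate 1 and 0.0881 without Ebf2-positive replicate 3. The second Fzd5 probe set read 2.88, 3.20 and 3.54 against 3.75, 4.11 and 3.23. Its groups overlapped, and its difference of -0.49 was not called. The erythroid and cell division markers were higher in the Ebf2-negative group too, and their part in the Fzd5 value was not tested.

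Lrp6, the co-receptor of the β-catenin branch, is shown after its values were seen. It read 7.04, 6.96 and 7.38 against 6.53, 6.09 and 5.95, a small step without overlap (difference 0.94, SE 0.24, adjusted p = 0.0317). Its call was lost without Ebf2-negative replicate 2 (adjusted p = 0.105), Ebf2-negative replicate 3 (0.120), Ebf2-positive replicate 1 (0.0577) or Ebf2-positive replicate 3 (0.0771). Fzd1 read 8.44, 7.39 and 9.03 against 6.32, 7.37 and 6.76. Ebf2-positive replicate 2 lay beside Ebf2-negative replicate 2 (difference 1.47, SE 0.48, adjusted p = 0.0708), and without that Ebf2-positive array the difference was 1.92 (adjusted p = 0.0193). With any other array left out, adjusted p was 0.0791 to 0.207. Fzd7 read 6.29, 6.01 and 6.43 against 6.54, 6.34 and 5.90, with overlapping groups, a difference of -0.02 and a 95% interval of -0.60 to 0.56. Ryk, a receptor without active kinase, read 6.99, 8.0 and 7.89 against 8.76, 8.46 and 8.0. Those groups met at the same level (difference -0.78, adjusted p = 0.165), while of its further probe sets 1 was called lower by 2.23 and 1 differed by -0.09 without a call. The mean over all Ryk probe sets was called lower (difference -1.03, adjusted p = 0.0420). The other receptors Fzd3, Fzd6, Fzd9, Fzd10 and Lrp5 differed by -0.60, -0.26, 0.00, 0.48 and 0.17 and were not called.

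The genes that set receptor turnover were called in both directions, with 2 of 6 called higher and 1 lower. Lgr4, a receptor for R-spondins, read 9.01, 7.18 and 7.57 in Ebf2-positive and 5.88, 6.17 and 4.84 in Ebf2-negative cells. The groups lay apart (difference 2.29, SE 0.56, 4.88-fold, adjusted p = 0.0291), but the call was lost without Ebf2-negative replicate 1 (adjusted p = 0.0745) or Ebf2-negative replicate 3 (0.0950). Kremen1, a receptor for Dkk proteins that helps remove Lrp6, read 6.27, 5.87 and 5.27 against 3.42, 4.23 and 4.0 (difference 1.92, SE 0.34, adjusted p = 0.00878). Rnf43, a ubiquitin ligase that takes Frizzled receptors off the surface and is itself a Wnt target, read 2.47, 2.64 and 2.25 against 3.87, 3.67 and 3.32. The Ebf2-positive values were the lower ones (difference -1.17, SE 0.23, 2.25-fold, adjusted p = 0.0124). All values but that of Ebf2-negative replicate 1 lay below the array median, so the fold is not exact. Its paralogue Znrf3 leaned the other way, at 6.38, 5.52 and 6.00 against 5.23, 4.89 and 3.62, without overlap and without a call (difference 1.39, adjusted p = 0.0769). Lgr5, a Wnt target and R-spondin receptor, read 3.50, 3.55 and 3.02 against 2.85, 4.44 and 3.36, with overlapping groups (difference -0.19, adjusted p = 0.782). Lgr6 was dim and differed by 0.09.

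Of the 10 secreted inhibitors, 5 were called higher and 0 lower, with a median difference of 1.53. Dkk2, which binds Lrp5 and Lrp6, had the largest measured difference of all members. It stood at 7.85, 8.15 and 6.59 in Ebf2-positive cells and at 2.52, 2.42 and 2.06 in Ebf2-negative cells. All Ebf2-negative values lay below the array median, and the groups were far apart (difference 5.20, SE 0.42, 36.7-fold, adjusted p = 0.000687). As for Wnt5a, such a fold is not exact. Its family member Dkk1 was dim, with a difference of -0.04.

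Sfrp2, a Frizzled-related protein that binds Wnt ligands, read 7.80, 9.39 and 7.04 against 4.24, 4.46 and 3.81. The groups did not overlap (difference 3.91, SE 0.59, 15.0-fold, adjusted p = 0.00509). Sfrp1 read 6.95, 7.47 and 6.67 against 4.85, 5.92 and 4.58 (difference 1.91, SE 0.41, adjusted p = 0.0171). Sfrp4 read 9.91, 9.77 and 10.10 against 7.45, 8.87 and 7.72 (difference 1.91, SE 0.39, adjusted p = 0.0145). For both, Ebf2-negative replicate 2 was the highest of its group and still below every Ebf2-positive array. The Sfrp1 call was lost without Ebf2-negative replicate 1 (adjusted p = 0.0662) or 3 (0.0629), and that of Sfrp4 without Ebf2-negative replicate 3 (0.0616).

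Dkk3, a divergent member of the Dkk family, read 7.92, 7.13 and 6.93 against 4.27, 5.39 and 4.52 (difference 2.60, SE 0.39, 6.07-fold, adjusted p = 0.00509). Its second probe set went the other way, by -1.06 without a call, and the mean of both gave 0.77 (adjusted p = 0.137). The remaining inhibitors were not called. Wif1, which binds Wnt ligands, read 3.63, 6.01 and 5.79 against 5.35, 6.89 and 5.96, with overlapping groups (difference -0.92, adjusted p = 0.408). Notum, an enzyme that strips the lipid from Wnt proteins and is a feedback target, read 4.65, 3.28 and 5.58 against 3.23, 3.37 and 3.48. Ebf2-positive replicate 2 lay within the Ebf2-negative range (difference 1.14, adjusted p = 0.195), and without it the difference was 1.75 (adjusted p = 0.0155). With any other array left out, adjusted p was 0.317 to 0.372. Frzb and Sfrp5 differed by 0.82 and 0.33.

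Of the 6 cytoplasmic regulators, 2 were called higher and 0 lower. Axin2, a scaffold of the destruction complex and the most widely used target gene of the β-catenin branch, read 5.46, 6.24 and 6.63 in Ebf2-positive and 4.31, 4.91 and 4.28 in Ebf2-negative cells. The groups did not overlap (difference 1.61, SE 0.36, 3.06-fold, adjusted p = 0.0197). The call was lost without Ebf2-negative replicate 1 (adjusted p = 0.0734) or Ebf2-negative replicate 3 (0.0786). Nkd1 and Nkd2, feedback inhibitors that act on Dishevelled, had 1 call between them. Nkd2 read 5.43, 5.55 and 5.43 against 3.05, 4.82 and 3.66 (difference 1.62, SE 0.44, adjusted p = 0.0399), with Ebf2-negative replicate 2 nearest to the Ebf2-positive arrays. Its call was kept only without that array, and adjusted p was 0.0941 without Ebf2-negative replicate 1, 0.129 without Ebf2-negative replicate 3, 0.0892 without Ebf2-positive replicate 1, 0.0874 without Ebf2-positive replicate 2 and 0.0809 without Ebf2-positive replicate 3.

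Nkd1 read 5.80, 3.33 and 6.81 against 2.65, 3.02 and 3.37. Ebf2-positive replicate 2 lay at the level of the Ebf2-negative arrays (difference 2.31, SE 0.84, adjusted p = 0.10), and without it the difference was 3.30 (adjusted p = 0.00437). With any other array left out, adjusted p was 0.184 to 0.247. A further Nkd1 probe set read 4.57, 4.04 and 4.10 against 3.64, 3.97 and 4.16. Its groups overlapped, and its difference of 0.31 was not called. The remaining Nkd1 probe sets were dim and differed by 0.25 and 0.02. The core genes of the destruction complex were not called. Gsk3b, its kinase, read 8.61, 8.37 and 8.66 against 8.73, 7.61 and 7.90 (difference 0.46, 95% interval -0.30 to 1.23). Axin1 read 7.0, 6.97 and 5.99 against 7.77, 7.02 and 6.79 (difference -0.54, adjusted p = 0.374), and Apc read 6.24, 6.38 and 7.16 against 6.83, 6.06 and 6.44 (difference 0.15, adjusted p = 0.779). The groups of Gsk3b, Axin1 and Apc overlapped.

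Some members that varied within a group did so together with a marker list, as was seen after their values were known. The mean log2 signal of 18 chondrocyte markers was 7.24, 4.78 and 7.52 in Ebf2-positive replicates 1, 2 and 3 and 4.77, 5.57 and 4.93 in the Ebf2-negative ones, with 3 of 18 called higher and both Matn1 and Col10a1 dim. Replicate 2 was thus the lowest Ebf2-positive array for these markers and for the chosen probe sets of Nkd1, Notum, Fzd1 and Wnt9a. It was the lowest of its group for 20 of all 56 members, and Wnt9a there (6.88) stayed above every Ebf2-negative array. The erythroid (5.02 against 5.47 and 5.09) and cell division means (4.81 against 5.96 and 5.74) were lowest on that Ebf2-positive array too. The leukocyte, endothelial and fibroblast means were highest there. The mean of 12 marrow reticular markers was 6.86, 8.38 and 6.82 against 7.5, 8.85 and 7.61, with 0 of 12 called higher and 1 lower. It was highest in replicate 2 of each group, where Wif1 was highest in both groups too. Wnt4 and Rspo2 were highest in Ebf2-negative replicate 2 but not in Ebf2-positive replicate 2, where Wnt4 was the lowest of its group. Ebf2-positive replicate 2 also had the lowest ratio of 3' to 5' actin signal of its group, 14.0 against 31.4 and 27.3, a sign of RNA quality and amplification. The part of cartilage cells, reticular cells, other cells or RNA quality in these values was not tested.

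**Figure D3:**
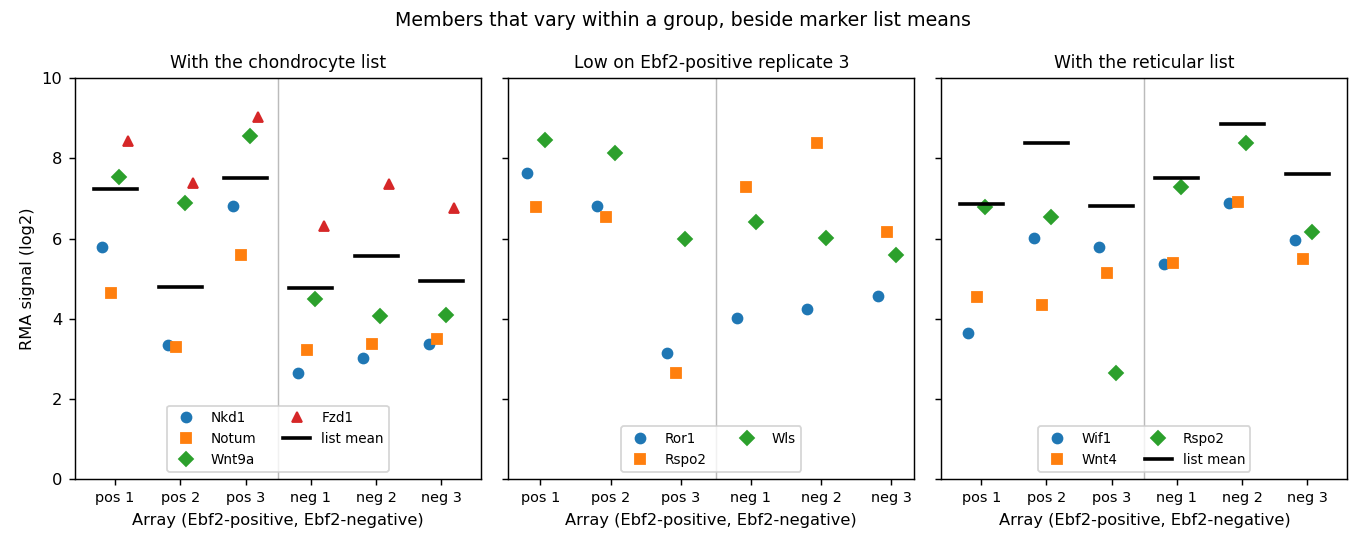
Log2 signal on each of the 6 arrays for members that varied within a group, in 3 panels, with black bars for the mean of the chondrocyte list (first panel: Nkd1, Notum, Wnt9a and Fzd1) and of the marrow reticular list (last panel: Wif1, Wnt4 and Rspo2, of which only Wif1 is highest where the list is in both groups). In the middle panel replicate 3 is the lowest Ebf2-positive array for Ror1, Rspo2 and the chosen Wls probe set (not for its other bright ones). In the first panel replicate 2 is the lowest Ebf2-positive array for each member and for the list.

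Of the 4 nuclear effectors analysed, 2 were called higher and 0 lower. Tcf7l1, the TCF factor best known as a repressor, read 8.67, 8.26 and 7.98 against 6.22, 6.75 and 6.98. The groups lay apart (difference 1.66, SE 0.29, 3.15-fold, adjusted p = 0.00848). Its second probe set, at 7.23, 7.90 and 8.06 against 4.06, 6.10 and 4.61, was called too, with a difference of 2.80. Tcf7l2, which acts with β-catenin in many adult tissues, read 5.85, 5.12 and 5.14 against 4.36, 4.41 and 3.73 (difference 1.21, SE 0.30, adjusted p = 0.0307). Its call was lost without Ebf2-negative replicate 1 (adjusted p = 0.0687), Ebf2-negative replicate 2 (0.0595), Ebf2-negative replicate 3 (0.104) or Ebf2-positive replicate 1 (0.0614).

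Ctnnb1, the gene of β-catenin, whose activity is set mainly by protein turnover, read 11.61, 11.55 and 11.37 against 11.33, 11.09 and 11.18. The groups did not overlap, but the step was small and was not called (difference 0.31, 95% interval -0.13 to 0.75). Lef1 read 3.65, 3.80 and 3.77 against 3.12, 3.16 and 3.41, close to the array median and without overlap (difference 0.51, adjusted p = 0.0944). Of the feedback targets named for this comparison, Axin2 was called higher and Rnf43 lower. Lgr5, Nkd1, Notum, Lef1 and Znrf3 were not called.

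Letters bound by TCF/LEF factors were looked for next to the starts of the members. The search covered the 250 bases before RefSeq gene starts (build GRCm38.p6), both strands, for the letters CTTTGAA, the variant CTTTGAT, the variant CTTTGTA or the variant CTTTGTT, and 37 of the 56 members had such a window. A match stood in 6 of 46 member windows (13%) and in 4874 of 32851 windows over all genes (14.8%). Among the 13 members called higher that had a window, Wnt11 and Tcf7l2 held a match. The palindrome bound by EBF factors, TCCC and GGGA with 2 bases of any kind between them, stood in 0 of 46 member windows and in 256 of 32851 (0.779%). Matches are letters only and are no evidence of binding. The windows of both called genes are shown with that of Dkk1, a dim inhibitor with 2 matches, and that of Axin2, a called target gene with none, the matches being in capitals and each strand read toward the gene. They lie at chr7:98834862-98835111 (Wnt11, plus strand), chr19:55895071-55895320 (Tcf7l2, plus strand), chr19:30549497-30549746 (Dkk1, minus strand) and chr11:108920099-108920348 (Axin2, plus strand).
Wnt11: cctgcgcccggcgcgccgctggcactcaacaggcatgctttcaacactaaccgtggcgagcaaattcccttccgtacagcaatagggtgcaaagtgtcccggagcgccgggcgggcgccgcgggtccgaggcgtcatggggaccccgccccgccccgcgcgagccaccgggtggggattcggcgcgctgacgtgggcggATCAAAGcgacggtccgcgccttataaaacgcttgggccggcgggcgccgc
Tcf7l2: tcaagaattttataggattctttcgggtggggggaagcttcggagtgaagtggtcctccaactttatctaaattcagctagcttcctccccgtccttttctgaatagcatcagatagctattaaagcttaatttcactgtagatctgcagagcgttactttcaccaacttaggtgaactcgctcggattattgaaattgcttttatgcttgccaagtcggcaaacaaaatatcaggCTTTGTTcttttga
Dkk1: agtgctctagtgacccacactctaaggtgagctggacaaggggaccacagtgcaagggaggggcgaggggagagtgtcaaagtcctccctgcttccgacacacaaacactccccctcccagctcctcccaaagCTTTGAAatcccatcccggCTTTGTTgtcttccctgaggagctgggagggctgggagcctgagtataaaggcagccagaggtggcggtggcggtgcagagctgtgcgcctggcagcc
Axin2: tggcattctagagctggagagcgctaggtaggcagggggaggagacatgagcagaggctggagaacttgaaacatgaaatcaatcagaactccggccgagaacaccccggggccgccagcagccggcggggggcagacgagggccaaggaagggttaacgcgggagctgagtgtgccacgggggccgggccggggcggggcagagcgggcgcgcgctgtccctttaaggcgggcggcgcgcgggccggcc
Wnt11 and Tcf7l2 have 2 listed starts each, and the window holding the match is the one shown.

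Pathway genes outside the members, were listed by their textbook roles. Of 82 measured, 22 were called higher and 6 lower, with a median difference of 0.39. Over all genes 10.8% were called higher and 13.6% lower, with a median of 0.07. The counts by list below are to be read beside those shares, as the lists are short and some are near them. Of 10 genes listed with the other ligands, 1 was called. It was not a ligand but Porcn, the enzyme that adds the lipid to Wnt proteins, at 2.13 (adjusted p = 0.0103). The ligands of that list, further Wnt genes and Rspo4, were not called. Of 12 other extracellular inhibitors and co-receptors, 6 were called higher and 1 lower. They included Apcdd1, a membrane inhibitor of Wnt signals, at 4.44 (adjusted p = 0.000543), the glypican Gpc3 at 3.53 (0.0122), and Reck and Adgra2, partners in Wnt7 reception, at 3.43 (0.00132) and 3.07 (0.00687). Dkkl1, named after its value was seen, was called lower, at -1.82 (0.00551).

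In the 19 cytoplasmic transduction genes, 4 were called higher and 0 lower. The Dishevelled antagonists Dact1 and Cxxc5 differed by 3.74 (adjusted p = 0.00553) and 2.59 (0.000449). The kinase Csnk1e differed by 2.22 (0.0435) and the Dishevelled gene Dvl1 by 1.06 (0.0467). These last calls were weak. Csnk1e lost its call without Ebf2-negative replicate 1 (0.135) or 3 (0.140) or Ebf2-positive replicate 1 (0.0869) or 2 (0.0960). Dvl1 lost its call without Ebf2-negative replicate 2 (0.120) or 3 (0.141) or any of the Ebf2-positive replicates (0.109, 0.0770 and 0.0956).

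Of 12 nuclear cofactors, 3 were called higher and 2 lower. The Groucho co-repressors split, with Tle1 at 1.87 and Tle4 at -1.58, and the Tle1 call was lost without Ebf2-negative replicate 1 (adjusted p = 0.0662) or 3 (0.0824). Jup, the gene of plakoglobin, differed by 1.73. Bcl9l, a β-catenin co-activator, differed by 1.59 and lost its call without Ebf2-negative replicate 1 (0.0761) or 3 (0.0883) or Ebf2-positive replicate 1 (0.0648) or 2 (0.0578). Pygo2, another co-activator, which was named after its value was seen, differed by -1.13 and kept its call only without Ebf2-positive replicate 2. Its adjusted p was 0.126 without Ebf2-negative replicate 1, 0.0857 without Ebf2-negative replicate 2, 0.127 without Ebf2-negative replicate 3, 0.0536 without Ebf2-positive replicate 1 and 0.0744 without Ebf2-positive replicate 3.

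Of 14 planar polarity and calcium branch genes, 4 were called higher and 1 lower. The transcription factor gene Nfatc4 differed by 2.82 and the formin gene Daam2 by 2.46. Both calls were lost without probe sets that can match several transcripts (differences 0.32 and 0.73, adjusted p = 0.374 and 0.103), where another probe set stood for the gene. The polarity cadherin Celsr1 differed by -1.95 (adjusted p = 0.00542). The kinase gene Camk2d differed by 1.88, with its call lost without Ebf2-negative replicate 2 (0.140) or 3 (0.159) or Ebf2-positive replicate 2 (0.0871) or 3 (0.0890).

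Of 15 further genes often listed as Wnt targets, 4 were called higher and 2 lower. Fgf18, a growth factor of bone and cartilage, differed by 3.64 (adjusted p = 0.000449). Id2, Twist1 and Tcf4, regulators of basic helix-loop-helix factors or members of that class, differed by 3.40, 2.92 and 2.43. Myc and Cd44, named after their values were seen, differed by -1.78 (0.00356) and -0.88 (0.0298). The Cd44 call was kept only without Ebf2-positive replicate 1, with adjusted p of 0.0992, 0.0647 and 0.0888 without Ebf2-negative replicates 1, 2 and 3 and 0.0659 and 0.0621 without Ebf2-positive replicates 2 and 3. Many of these targets also answer to other pathways, and cell division genes were lower in the same cells as Myc. The part of either in these values was not tested.

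**Figure D4:**
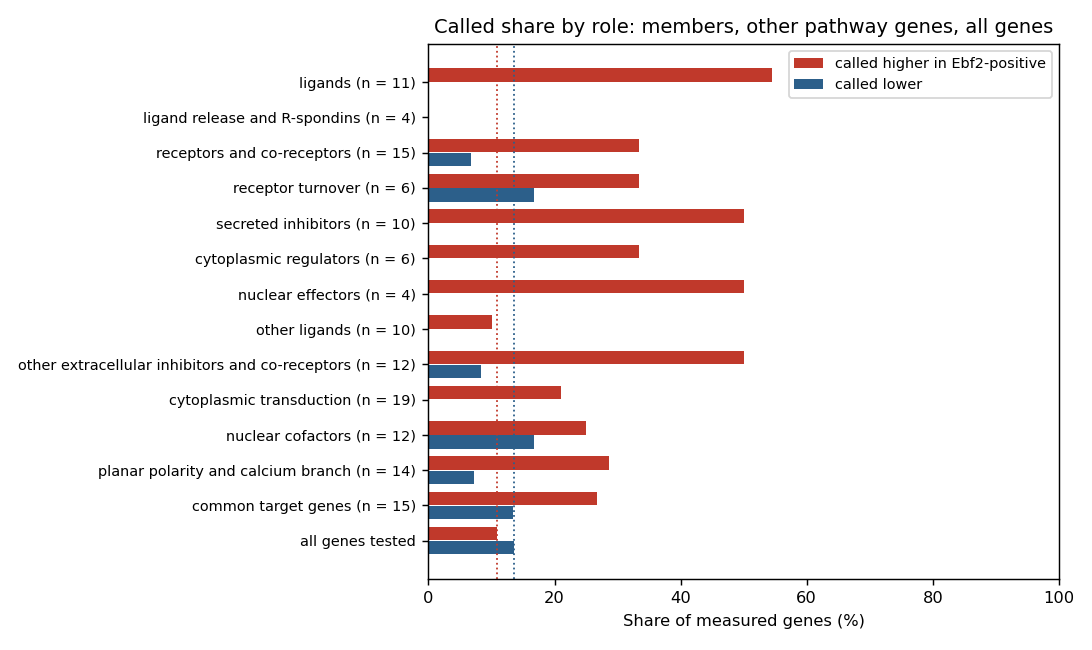
Percent of genes called higher and called lower in Ebf2-positive cells for all genes, the Wnt members by role and the other pathway lists, with the number of genes in each. Among the members' roles, 6 of 11 ligands, 5 of 10 secreted inhibitors, 2 of 4 nuclear effectors and 5 of 15 receptors were called higher, against 10.8% of all genes.

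The called members were not equally secure. A call was kept in all 6 fits that left out 1 array for 14 of the 24 members: Wnt5a, Wnt9a, Wnt10a, Wnt11, Fzd2, Fzd4, Fzd8, Ror2, Kremen1, Rnf43, Sfrp2, Dkk2, Dkk3 and Tcf7l1. Those fits used the same probe set for each gene and do not bear on its choice. Of the 14, Dkk3 lost its call when a gene's probe sets were averaged. Without Ebf2-negative replicate 3 there were 13 members called higher and 1 lower, and calls over all genes fell as well, to 1294 higher and 1396 lower from 1961 and 2469. Ebf2-negative replicate 2 was the highest Ebf2-negative array for 16 of the 22 members called higher. It was so for 28 of all 56 members and for 9 of the 28 uncalled members that were not dim. The share over all genes was not counted. That array was also the highest of its group in the mean of every marker list but the leukocyte one (6.60 against 6.61 and 6.90). The fibroblast (7.05 against 6.09 and 6.27), marrow reticular (8.85 against 7.5 and 7.61) and endothelial means (5.90 against 4.85 and 4.81) were among these. So were the osteoblast (7.21 against 6.22 and 6.09), chondrocyte (5.57 against 4.77 and 4.93) and pericyte and smooth muscle means (5.25 against 4.65 and 4.83). The erythroid (9.40 against 9.19 and 9.27) and cell division means (9.47 against 9.40 and 9.44) were closer together. The array had the lowest 3' to 5' actin ratio (15.9 against 24.2 and 19.5) and the lowest mean poly-A control signal (8.70 against 10.31 and 10.52) of its group. The part of any of these in the Wnt values of that array was not tested.

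The choice of 1 probe set per gene left others out, and their calls come from limma's test of all 45037 probe sets singly. The members have 127 probe sets, and the 71 not chosen belong to 41 genes. Of these 71, 27 were dim, 3 were called higher (2 of Fzd2 and 1 of Tcf7l1) and 1 lower (Ryk). The further sets of the other called members were thus not called. They differed by 1.21, 0.65, 0.28 and -0.07 for Sfrp1, by 0.92, 0.67 and 0.42 for Tcf7l2, and by 0.80, 0.61 and 0.56 for Nkd2. Those of Kremen1 differed by 0.76 and 0.12. Single further sets differed by 1.05 for Fzd8, 0.72 for Wnt6, 0.46 for Lrp6, 0.37 for Ror2, -0.01 for Axin2 and -0.16 for Lgr4. An antisense or overlapping transcript cannot be told from the named gene where a probe set reads it.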

How the data were processed

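The authors deposited an intensity for each probe set on each array. Per the submitters' processing notes it came from RMA (no version stated). That method corrects background, sets all arrays to common quantiles and then joins the probes of a set, so a difference in total RNA between groups cannot be seen. Per the labels and the series' design text, RNA came from 1000 or 2000 cells and was amplified, which adds spread to dim genes. The intensities are linear, and log2 was taken first. Of 45101 probe sets, 64 controls were left out, 34945 name 1 gene, 932 several and 9160 none, by GEO's array annotation. The Entrez identifiers of 34741 were found in RefSeq (GRCm38.p6), with 0 symbols changed.

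Groups (3 arrays each) were compared over 18193 genes with limma 3.58.1 in R 4.3.3 (lmFit, eBayes, two-sided, Benjamini-Hochberg, threshold 0.05), tested on simulated data. Figures used Python 3.11.15 and matplotlib 3.10.9. The number of arrays limits the precision. Members and lists were chosen with earlier results of these data known. Values on each array were given, by role, for up to 5 called members of largest size, for named feedback targets, for up to 3 uncalled members of highest mean, and for others marked as shown after their values were seen. Of the other pathway genes, up to 4 called per list were named, beside those marked as named after their values were seen. Alternatives were other scalings, a filter on dim probe sets, other probe set choices, other eBayes settings, array weights, a replicate block, and each array left out.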

Additional observations from a re-analysis of the deposited data

How the results depend on the processing

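With each array left out in turn, between 14 and 26 members were called, 13 to 24 of them higher and 1 or 2 lower, against 24, 22 and 2 with all arrays. Other pathway genes gave 19 to 28 calls over the alternatives apart from poly-A centring. Over all genes, leaving out an array gave 1294 to 1877 called higher and 1396 to 2471 lower. Each uncalled member given above with an adjusted p below 0.05 without 1 array had it in that fit alone. The array left out there was the one that most reduced the difference, so the lower adjusted p adds no evidence of a difference. Members called lower numbered 1 after a filter on dim probe sets, where Rnf43 was not tested, and 1 when all probe sets were tested singly, where the Fzd5 call was lost. Averaging all probe sets per gene gave 3 lower calls and gained Ryk, Wls, Fzd1 and Frzb, while Wnt6, Lrp6 and Dkk3 lost theirs. Wnt6 lost its call under 6 alternatives that left out no array besides poly-A centring.

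Centring on the poly-A controls left 2 members called higher and 27 lower. It gave 54 other pathway calls, 1 higher and 53 lower, and 227 genes higher and 15596 lower over all genes. By construction it lowered every difference by 2.48, which also turned the sign of 9 members called under neither scaling (Wnt2, Wls, Rspo1, Rspo3, Fzd1, Ror1, Znrf3, Notum and Nkd1). The others that turned were ligands (Wnt5b -1.56, Wnt6 -1.66, Wnt10a -0.70, Wnt10b -1.22, Wnt11 -0.27, Wnt16 -2.05), receptors (Fzd8 -0.57, Fzd9 -2.48, Fzd10 -2.00, Lrp5 -2.31, Lrp6 -1.54), turnover genes (Lgr4 -0.19, Lgr6 -2.39, Kremen1 -0.56), inhibitors (Sfrp1 -0.57, Sfrp4 -0.57, Sfrp5 -2.15, Frzb -1.66), cytoplasmic genes (Axin2 -0.87, Apc -2.33, Gsk3b -2.02, Nkd2 -0.855), nuclear effectors (Ctnnb1 -2.17, Tcf7l1 -0.82, Tcf7l2 -1.27, Lef1 -1.97) and other pathway genes (Porcn -0.35, Dvl1 -1.42, Csnk1e -0.26, Bcl9l -0.89, Tle1 -0.61, Jup -0.74, Daam2 -0.017, Camk2d -0.60, Tcf4 -0.048). Centring on the 75th percentile moved the median over all genes from 0.07 to 0.19 and gained Wnt2.

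With a replicate block, 22 members were called, without Wnt6 and Lrp6. Same-numbered arrays had correlations of 0.058, 0.11 and 0.029 in their deviations from the group means. Each Ebf2-positive array correlated best with the array of its own number, but Ebf2-negative replicate 3 did so with Ebf2-positive replicate 1 (0.042), and the labels do not pair the samples. The 3 arrays a group and amplified RNA limit what can be seen for dim members.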
